A study of Homo sapiens with 9 samples.

Results

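The 46 genes described here encode proteins that hold epithelial cells together and give them an upper and a lower face: claudins, the occludin family and other tight junction proteins, desmosome proteins, polarity proteins, and cell surface, nectin and gap junction proteins. They were taken as every probe set of the array whose only gene symbol in the platform's annotation was one of the 46 symbols listed for this set of genes. This gave 115 of the 54675 probe sets and 46 of the 19775 genes that could be named by 1 symbol. Of the 46 genes, 13 had 1 probe set and 33 had several, up to 7. A probe set reads 1 stretch of a transcript, so probe sets of 1 gene can differ.

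RNA came from the established line Hec50, of a human endometrial cancer, and was hybridised to 9 Affymetrix arrays in 3 groups of 3. The first group was mock transfected, and the labels give no dose or time for it. The second received a scrambled negative control RNA at 60 nM for 48 hours, and the third a mimic of the microRNA miR-200c at the same dose and time. All groups are of this 1 line, and no label states that its replicates are separate cultures. The p-values therefore speak only of the spread among these 9 samples, and that spread may be technical. The study's question was which genes miR-200c regulates in an aggressive cancer.

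Tight junctions seal the space between neighbouring epithelial cells: claudins and occludin span the membrane, and scaffold proteins tie them to actin. Desmosomes are spot welds in which desmogleins and desmocollins reach between cells and plakophilins and desmoplakin anchor them to keratin filaments. The Crumbs, Par and Scribble protein complexes set where these junctions form. The miR-200 family is abundant in epithelial cells and represses ZEB1 and ZEB2, transcription factors that bind E-box letters in DNA and repress epithelial genes, E-cadherin (CDH1) among them.

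A microRNA chooses its targets mainly by its seed, bases 2 to 8, shown here in capitals in the mature sequences of the family (RefSeq, GRCh38.p14), because the mimic is of miR-200c; the labels do not name its arm.
miR-200c-3p: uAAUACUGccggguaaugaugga
miR-200b-3p: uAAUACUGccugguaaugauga
miR-429: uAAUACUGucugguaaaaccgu
miR-141-3p: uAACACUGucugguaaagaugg
miR-200a-3p: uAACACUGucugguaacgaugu
The first 3 share the seed AAUACUG and the other 2 the seed AACACUG. The gene of miR-200c lies on the forward strand, its mature sequence at chr12:6963742-6963764.

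The deposited values were taken as log2 signals, and the authors had set the 9-array median of every probe set to 0. They show differences between arrays and not levels. Differences are log2 changes with their standard error (SE), from limma fitted to all 9 arrays, and a gene or probe set passed at a Benjamini-Hochberg adjusted p under 0.05 over the whole array. "Rose" and "fell" below stand for changes that passed. A level class (under 4, 4 to 8, 8 or more, on the original log2 scale) was recovered from the rounding of the stored numbers. Replicates of a group differed with an SD over probe sets of 0.131 to 0.182, and only 3 arrays a group limit the precision.

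The check genes moved with the mimic: ZEB1 fell by 1.57 and ZEB2 by 0.56 against the scrambled control, and CDH1 rose by 3.26. Of the epithelial markers, 9 of 10 were measured, and 5 lay at a level of 8 or more, KRT8 and KRT18 among them, as did 7 of 8 mesenchymal markers. None of the 4 measured leukocyte markers or the 5 endothelial markers did, and PTPRC, which defines leukocytes, lay under 4. Against the scrambled control 5 epithelial markers rose (CDH1, EPCAM, KRT8, KRT18 and ESRP1) and 1 fell (PAX8). Of the mesenchymal markers 4 fell (ZEB1, ZEB2, FN1 and VIM) and 0 rose. The leukocyte marker LAPTM5 fell by 0.22. Over all genes 7.6% rose and 6.97% fell. Against mock 4 epithelial markers rose and 1 fell, and 4 mesenchymal markers fell, where 8.39% of all genes rose and 10.2% fell. The mean centred value of the epithelial markers, of which EPCAM is also described below, was 0.39 to 0.46 on the mimic arrays and -0.06 to -0.02 on the scrambled arrays. The check gene CDH1 is in this mean and had its largest change, followed by EPCAM at 1.06. KRT7, KRT19 and GRHL1 did not pass, at 0.00, -0.03 and -0.01, and PAX8 fell by 0.21. In such bulk RNA, a change in the share of cells and a change in RNA per cell cannot be told apart.

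Against the scrambled control, 19 of the 46 junction and polarity genes rose with the mimic and 0 fell, where 7.6% of all genes rose and 6.97% fell (14.6% in either direction). At an unadjusted p under 0.05 the limma fit gave 23 higher and 2 lower. The share of all genes at that threshold was not counted. By probe set, 30 of 115 rose and 2 fell, against 4.52% and 4.15% of all probe sets (32 in either direction, against 8.66%). The median log2 change was 0.12 over the 46 genes and -0.01 over all genes. At least 1.5-fold higher were 7 genes, EPCAM, MARVELD2, PKP2, DSP, MARVELD3, CGN and MUC1, against 0.946% of all genes. The 3 mimic arrays lay wholly above the 3 scrambled arrays in 40 member probe sets (11.7% over all probe sets) and wholly below in 11 (12.5%). Without mimic replicate 1 the member probe sets that passed numbered 20, of which 19 were higher, against 3696 and 1761 of all 54613.

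**Figure D1:**
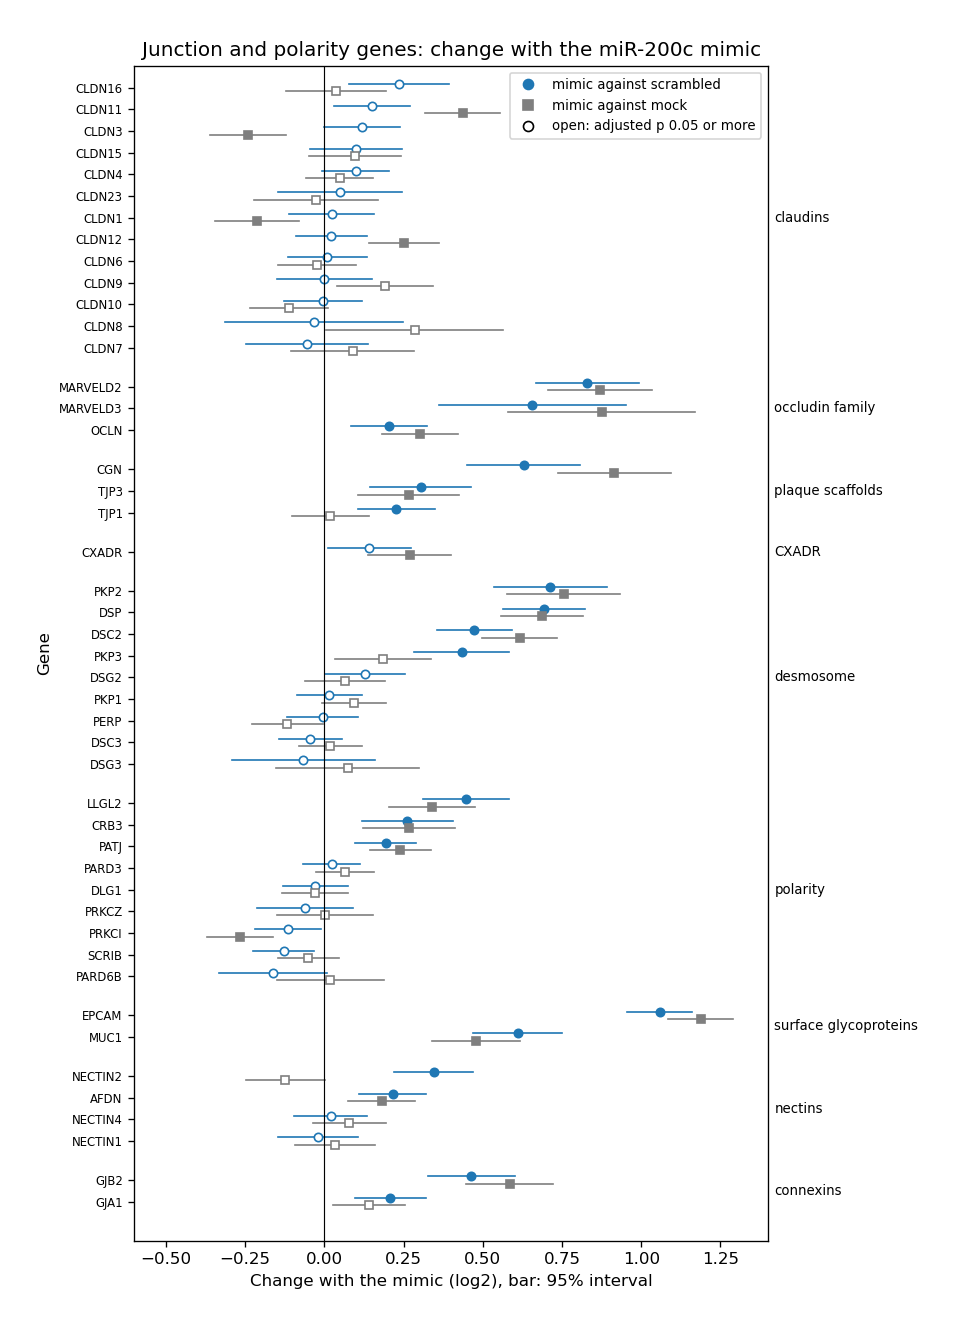
Log2 change of each of the 46 genes with the mimic, against the scrambled control (circles) and against mock (squares), by role group, with 95% intervals from limma and filled symbols where the change passed. Against the scrambled control the changes run from -0.16 for PARD6B to 1.06 for EPCAM. None of the 13 claudins passed there, where 14.6% of all genes did in either direction.

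The rises were spread unevenly over the roles. All 3 occludin family genes, all 3 plaque scaffolds, both surface glycoproteins and both connexins rose, as did 4 of 9 desmosome genes, 3 of 9 polarity genes and 2 of 4 nectin and afadin genes. Of these risers, TJP1, PKP3, NECTIN2 and GJA1 did not pass against mock. Of the 13 claudins and CXADR, 0 passed, where 14.6% of all genes passed in either direction and 7.6% rose. Whether the roles differ from each other was not tested. By level class, 11 of 44 member probe sets at 8 or more rose (7.76% of all there), 18 of 61 at 4 to 8 (4% of all there) and 1 of 10 under 4 (0.457% of all there).

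ZEB proteins are known to bind the letters CACCTG, or CAGGTG on the other strand, so the 250 bases before the start of each gene were read from RefSeq promoters (GRCh38.p14) for these letters. Such a window was found for 33 of the 46 genes. The letters stood in 17 of their 51 windows (33.3%), and in 17.5% of all 35116 windows of that length. Of the 14 genes with a window that rose with the mimic against the scrambled control, 9 held a match in any window, and of the 19 that did not pass, 5 did. Of all genes with a window, 20.6% held one, against 42.4% of the 33. A gene with several windows has more places for a match. The 33 genes had 51 windows, where all 27305 genes had 35116, and these gene shares were not adjusted for that. A match says only that the letters are there. The 13 genes without a window are CLDN8, CLDN9, CLDN23, MARVELD3, CXADR, PKP2, PKP3, PARD3, PARD6B, LLGL2, SCRIB, EPCAM and NECTIN1.

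The windows of 5 genes are shown because they pair matches with responses of different size; the matches are in capitals. CRB3, the apical Crumbs protein, holds 5, and 0.0740% of windows hold that many.
CRB3, chr19:6464021-6464270, forward strand: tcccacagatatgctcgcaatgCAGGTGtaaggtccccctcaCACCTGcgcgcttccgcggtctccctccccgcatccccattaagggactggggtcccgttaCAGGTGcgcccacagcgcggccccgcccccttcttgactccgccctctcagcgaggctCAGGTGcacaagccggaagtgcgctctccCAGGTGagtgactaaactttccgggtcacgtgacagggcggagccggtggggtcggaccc
PATJ, chr1:61742230-61742479, forward strand: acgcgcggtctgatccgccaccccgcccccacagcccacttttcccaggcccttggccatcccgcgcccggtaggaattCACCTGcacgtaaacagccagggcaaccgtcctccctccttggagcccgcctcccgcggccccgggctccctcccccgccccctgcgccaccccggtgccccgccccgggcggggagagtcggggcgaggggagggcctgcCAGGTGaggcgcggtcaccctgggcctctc
DSP, chr6:7541421-7541670, forward strand: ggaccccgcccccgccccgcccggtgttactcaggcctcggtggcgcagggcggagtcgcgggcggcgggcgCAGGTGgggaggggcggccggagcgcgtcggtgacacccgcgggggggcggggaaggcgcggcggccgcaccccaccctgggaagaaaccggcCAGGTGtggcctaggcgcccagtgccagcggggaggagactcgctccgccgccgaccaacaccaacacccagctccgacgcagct
CGN, chr1:151511137-151511386, forward strand: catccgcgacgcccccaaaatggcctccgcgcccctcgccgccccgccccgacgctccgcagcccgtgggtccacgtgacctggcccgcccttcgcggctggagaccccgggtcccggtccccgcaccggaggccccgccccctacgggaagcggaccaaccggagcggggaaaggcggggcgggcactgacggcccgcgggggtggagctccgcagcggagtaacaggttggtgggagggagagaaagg
CLDN7, chr17:7262479-7262728, reverse strand: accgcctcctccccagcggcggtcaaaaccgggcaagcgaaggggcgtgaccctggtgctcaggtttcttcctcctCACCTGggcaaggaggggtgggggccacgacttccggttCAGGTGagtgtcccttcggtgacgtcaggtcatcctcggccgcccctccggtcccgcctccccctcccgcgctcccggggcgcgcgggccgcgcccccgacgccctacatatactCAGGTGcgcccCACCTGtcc
PATJ and DSP hold 2 each (2.53% of windows hold 2 or more), CLDN7 holds 4 in 1 of its 2 windows (0.122% of windows hold at least 4), and CGN holds none. Among these, DSP and CGN rose by 0.69 and 0.63 with the mimic against the scrambled control, CRB3 and PATJ by 0.26 and 0.19, and CLDN7 had a change of -0.05.

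Claudins form the paracellular strands of the tight junction, and members differ in whether they seal it or let ions through. None of their 23 probe sets passed against the scrambled control, where 8.66% of all probe sets did in either direction. In the limma fit 2 were higher and 0 lower at an unadjusted p under 0.05. The share of all probe sets at that unadjusted threshold was not counted. The changes by gene were 0.02 for CLDN1, 0.12 for CLDN3, 0.10 for CLDN4, 0.01 for CLDN6, -0.05 for CLDN7, -0.03 for CLDN8, -0.01 for CLDN10, 0.15 for CLDN11, 0.02 for CLDN12, 0.10 for CLDN15 and 0.05 for CLDN23. CLDN9 had a change that rounded to 0, with a 95% interval of -0.15 to 0.15. The widest interval was that of CLDN8, -0.31 to 0.25, and that of CLDN7 ran from -0.25 to 0.14.

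CLDN16, which in kidney lets magnesium and calcium pass, came nearest to the threshold. Its scrambled arrays read -0.25, -0.28 and 0.00 and its mimic arrays 0.08, 0.10 and 0.00, so the groups met at the third replicates. The change was 0.24 (SE 0.07, limma adjusted p = 0.05001, just above the threshold), and without scrambled replicate 3 it was 0.32 with an adjusted p of 0.00393. CLDN11 passed at an adjusted p of 0.0376 when only probe sets at a level of 8 or more were tested, with the same change of 0.15.

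**Figure D2:**
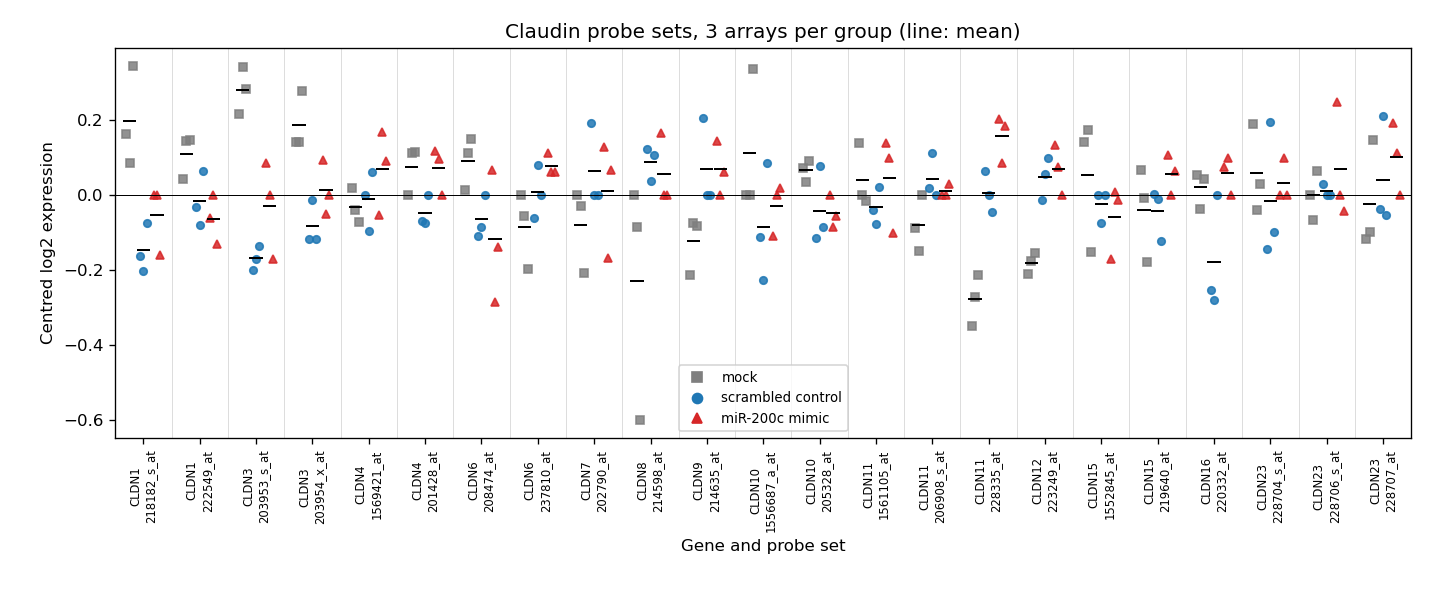
Centred log2 values of the 23 probe sets of the 13 claudin genes on each of the 9 arrays, by group, with each group's mean as a line. In no column does the difference between mimic and scrambled pass the test, and the mock arrays stand high in the first CLDN3 probe set (0.22 to 0.34) and low in CLDN12 (-0.21 to -0.15).

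The occludin family spans the tight junction membrane, and MARVELD2 (tricellulin) sits where 3 cells meet. MARVELD2 read 0.90, 0.72 and 0.71 on the mimic arrays, 0.05, -0.17 and -0.05 on the scrambled arrays and -0.11, -0.18 and 0.00 on the mock arrays, in the probe set at the highest level. The mimic arrays stood above the other 6 and the control groups overlapped. The gene rose 1.78-fold against the scrambled control (log2 change 0.83, SE 0.07, adjusted p = 3e-05, limma), and its second probe set rose by 0.81. The call of that second probe set ended without mimic replicate 1 (adjusted p = 0.0541) or scrambled replicate 3 (0.0534) and after quantile normalization (0.212).

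MARVELD3, a relative of occludin, had the largest change of any member probe set. That probe set read 1.33, 0.84 and 2.38 on the mimic arrays, 0.00, -0.07 and 0.06 on the scrambled arrays and -0.35, -0.21 and -0.08 on the mock arrays. All mimic arrays were above all controls, but the third was far above the other two. The change was 1.52 (SE 0.29, 2.87-fold, adjusted p = 0.00802), while the other probe sets of the gene, at 0.33 and 0.11, did not pass. Over the gene's probe sets the rise was 0.66.

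OCLN (occludin) rose by 0.20 over its probe sets at the highest level. Its most changed probe set read 0.43, 0.25 and 0.27 on the mimic arrays, -0.37, -0.30 and 0.02 on the scrambled arrays and 0.00, -0.25 and -0.14 on the mock arrays, with no overlap of the mimic with either control. That probe set rose by 0.54 (adjusted p = 0.00909) and the other 3, at 0.23, 0.18 and 0.01, did not pass. The call of the gene ended when an array was left out, with an adjusted p of 0.0873 without mimic replicate 1, 0.0659 without mimic replicate 2, 0.0815 without scrambled replicate 1 and 0.0922 without scrambled replicate 2. It also ended when the replicate number was added to the limma fit as a block (adjusted p = 0.0551).

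Under the membrane, TJP1 (ZO-1) and TJP3 (ZO-3) bind claudin tails, and CGN (cingulin) links them to actin and microtubules. In the first of its probe sets CGN read 0.60, 0.60 and 0.95 on the mimic arrays, 0.00, 0.23 and -0.02 on the scrambled arrays and -0.21, -0.41 and -0.30 on the mock arrays. The 3 groups did not overlap: mock was lowest and mimic highest. The gene rose 1.55-fold against the scrambled control (log2 change 0.63, SE 0.08, adjusted p = 0.000345) with both probe sets passing.

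TJP3 rose by 0.30 (SE 0.07, adjusted p = 0.0161) and TJP1 by 0.23 (SE 0.06, adjusted p = 0.0183). The call of TJP3 ended without mimic replicate 1 (adjusted p = 0.0543) and without mimic replicate 3 (0.0520), and that of TJP1 without mimic replicate 1 (0.0611), scrambled replicate 1 (0.0631) or scrambled replicate 2 (0.0519). CXADR, a junction adhesion protein known as the receptor of coxsackieviruses and adenoviruses, had a change of 0.14 (95% interval 0.01 to 0.27) that did not pass, with an adjusted p of 0.155. Its 4 probe sets differed in direction, from -0.19 to 0.22, and 0 passed.

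In the desmosome, DSP, PKP2, DSC2 and PKP3 rose. DSP (desmoplakin), which ties the plaque to keratin filaments, read 0.61, 0.64 and 0.64 on the mimic arrays, -0.03, -0.10 and -0.06 on the scrambled arrays and -0.20, 0.00 and 0.02 on the mock arrays. The mimic arrays lay within 0.03 of each other and far above both controls, which overlapped. The rise was 1.62-fold (log2 change 0.69, SE 0.06, adjusted p = 2.28e-05).

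PKP2 (plakophilin 2), an armadillo protein of the plaque, read 1.06, 1.10 and 1.09 with the mimic in 1 of its probe sets, 0.22, -0.12 and -0.02 with the scrambled control and 0.00, -0.04 and 0.00 with mock. The mimic arrays were high together and the scrambled and mock arrays overlapped. That probe set rose by 1.06 (SE 0.08, adjusted p = 2.17e-05), the other, at 0.37, did not pass, and the gene rose by 0.71.

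DSC2 (desmocollin 2), a desmosomal cadherin, rose in 3 of its 4 probe sets, by 0.61, 0.53 and 0.47. The most changed read 0.57, 0.47 and 0.42 with the mimic, 0.00, -0.05 and -0.30 with the scrambled control and -0.25, 0.00 and 0.03 with mock, so the controls overlapped and the mimic stood above them. The probe set at the highest level read 0.46, 0.50 and 0.41 on the mimic arrays, 0.00, -0.06 and 0.01 on the scrambled arrays and -0.26, -0.12 and -0.11 on the mock arrays. There the 3 groups did not overlap, with mock lowest. The gene rose 1.39-fold against the scrambled control (log2 change 0.47, SE 0.05, adjusted p = 0.000153).

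PKP3 (plakophilin 3) read 0.24, 0.13 and 0.17 with the mimic in its more changed probe set, -0.22, -0.77 and -0.23 with the scrambled control and 0.00, 0.00 and 0.00 with mock. Scrambled replicate 2 was the lowest, and the scrambled arrays lay under both other groups. The gene rose by 0.43 (SE 0.07, adjusted p = 0.00146). Its probe sets rose by 0.59 and 0.28, and both lost their calls without mimic replicate 1 (adjusted p = 0.0534 and 0.0819), the latter also without mimic replicate 3 (0.0855), scrambled replicate 1 (0.0943) or scrambled replicate 3 (0.0551). Against mock the change was 0.18 with an adjusted p of 0.0911, and 0.0301 without scrambled replicate 2.

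The other desmosome genes did not pass. DSG2 (desmoglein 2) stood at 0.13 (95% interval 0.00 to 0.25), and DSG3 (desmoglein 3), DSC3 (desmocollin 3), PKP1 (plakophilin 1) and PERP, a desmosome membrane protein and p53 target, at -0.07, -0.05, 0.02 and -0.01. DSC3 lay at a level under 4, and 1 of its 3 probe sets fell by 0.21 (adjusted p = 0.0382). That call ended when any of mimic replicates 1 and 2, mock replicates 2 and 3 and the 3 scrambled replicates was left out (0.0525 to 0.113).

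**Figure D3:**
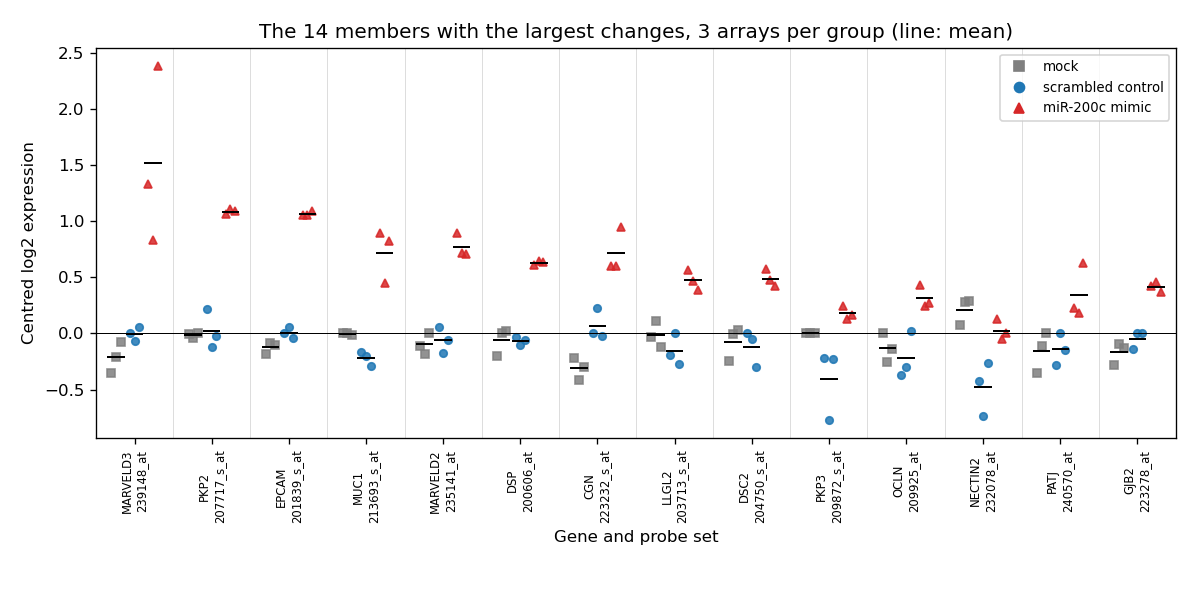
Centred log2 values of the 9 arrays, by group with each mean as a line, for the most changed probe set of the 14 genes with the largest changes that passed against the scrambled control. The mimic arrays lie above all 3 scrambled arrays in each column, and MARVELD3 shows the widest spread, 0.84 to 2.38.

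Among the polarity genes, LLGL2, PATJ and CRB3 rose. LLGL2, a giant larvae homologue that marks the basolateral side, read 0.57, 0.46 and 0.39 on the mimic arrays, -0.19, 0.00 and -0.27 on the scrambled arrays and -0.03, 0.11 and -0.12 on the mock arrays in its more changed probe set. The mimic arrays were above both controls, which overlapped. The gene rose by 0.45 (SE 0.06, adjusted p = 0.000587), and its probe sets rose by 0.63 and 0.27. The call of the smaller change ended without mimic replicate 1 (adjusted p = 0.0618), mimic replicate 3 (0.0726), scrambled replicate 1 (0.0777) or scrambled replicate 3 (0.0589).

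PATJ, a scaffold of the Crumbs complex, rose by 0.19 (SE 0.04, adjusted p = 0.0122), and 2 of its 6 probe sets passed, at 0.49 and 0.39. The one with the larger change, at a level under 4, read 0.23, 0.19 and 0.63 with the mimic, -0.28, 0.00 and -0.15 with the scrambled control and -0.35, -0.11 and 0.00 with mock. There the third mimic array was the highest and the mimic did not overlap the controls. The call of that probe set ended without mimic replicate 1 (adjusted p = 0.0550), mimic replicate 3 (0.104), mock replicate 2 (0.0589), scrambled replicate 1 (0.136) or scrambled replicate 3 (0.0975). The probe set at 0.39 passed under every alternative that included it.

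CRB3, whose window above holds 5 matches, rose by 0.26 (SE 0.07, adjusted p = 0.0204) through its only probe set. Its call ended without mimic replicate 1 (adjusted p = 0.0512), mimic replicate 3 (0.0763), scrambled replicate 2 (0.0807) or scrambled replicate 3 (0.0626). In the fit of all probe sets, where that probe set had an adjusted p of 0.0438, the call also ended without mock replicate 1 (0.0640), 2 (0.0668) or 3 (0.0553) and after quantile normalization (0.0617).

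PARD3, the Par complex scaffold, stood at 0.02 as a gene, but 1 of its 4 probe sets fell by 0.34 (SE 0.06, adjusted p = 0.00755). That probe set, described here after its values were seen, read -0.21, -0.41 and -0.31 with the mimic, -0.02, 0.01 and 0.10 with the scrambled control and 0.00, 0.01 and 0.10 with mock. All mimic arrays lay below all controls. The remaining 3 probe sets, at 0.03, 0.02 and -0.17, did not pass.

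For the other polarity genes the differences were -0.16 for PARD6B, the Par complex adaptor, -0.12 for PRKCI and -0.06 for PRKCZ, its atypical protein kinases C, and -0.13 for SCRIB and -0.03 for DLG1, Scribble complex scaffolds. None passed. SCRIB passed at an adjusted p of 0.0256, with the same change, when only probe sets at a level of 8 or more were tested.

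Both surface glycoproteins rose. EPCAM, a homophilic adhesion protein of epithelia that binds claudins, read 1.05, 1.06 and 1.09 on the mimic arrays, 0.00, 0.06 and -0.04 on the scrambled arrays and -0.18, -0.08 and -0.10 on the mock arrays. The groups did not overlap and the mimic arrays were within 0.04 of each other. The rise of 2.08-fold (log2 change 1.06, SE 0.05, adjusted p = 3.1e-07) was the largest of the 46 genes.

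MUC1, a membrane mucin of the apical surface, rose in all 3 of its probe sets, by 0.94, 0.50 and 0.39. The most changed read 0.89, 0.45 and 0.82 with the mimic, -0.16, -0.20 and -0.29 with the scrambled control and 0.00, 0.01 and -0.01 with mock. The mimic arrays were highest and the scrambled arrays lowest, without overlap. The gene rose 1.53-fold (log2 change 0.61, SE 0.06, adjusted p = 8.66e-05). The probe set at 0.50, of a kind that may bind related transcripts, lost its call without any 1 mimic array (0.0847 to 0.105), mock replicate 1 (0.0542) or mock replicate 3 (0.0525).

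Nectins are adhesion proteins that AFDN (afadin) links to actin. NECTIN2 rose in 3 of 4 probe sets against the scrambled control, by 0.50, 0.47 and 0.34, and by 0.34 as a gene (SE 0.06, adjusted p = 0.0019). Its most changed probe set read 0.13, -0.05 and 0.00 with the mimic, -0.43, -0.74 and -0.26 with the scrambled control and 0.07, 0.28 and 0.29 with mock. Here the scrambled arrays were the low ones, and the mimic and mock arrays overlapped. The call of that probe set ended without mimic replicate 1 (adjusted p = 0.0717).

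AFDN rose by 0.22 (SE 0.05, adjusted p = 0.0113) through the 1 of its 7 probe sets at a level of 8 or more. With the mean of all 7 the change was 0.08 with an adjusted p of 0.301. In the fit of all probe sets that probe set had an adjusted p of 0.0323 and lost its call without mimic replicate 1 (0.0885), mimic replicate 3 (0.0969), mock replicate 2 (0.0547), scrambled replicate 1 (0.0952) or scrambled replicate 3 (0.107). NECTIN1 and NECTIN4 did not pass, at -0.02 (95% interval -0.15 to 0.11) and 0.02 (-0.10 to 0.13).

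Of the connexins, which form gap junction channels, GJB2 (connexin 26) read 0.42, 0.46 and 0.37 with the mimic, -0.14, 0.00 and 0.00 with the scrambled control and -0.28, -0.09 and -0.13 with mock. The mimic arrays were above all controls. GJB2 rose 1.38-fold (log2 change 0.46, SE 0.06, adjusted p = 0.000477). GJA1 (connexin 43) rose by 0.21 (SE 0.05, adjusted p = 0.0191), and its call ended without mimic replicate 2 (adjusted p = 0.0658) or scrambled replicate 1 (0.0740). In the fit of all probe sets its only probe set had an adjusted p of 0.0478, and that call ended without any 1 of the 9 arrays (0.0611 to 0.158) and after quantile normalization (0.0539).

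Among 60 other junction and polarity genes listed alongside, 52 were measured, of which 8 rose and 5 fell with the mimic against the scrambled control, where 7.6% of all genes rose and 6.97% fell. Against mock 6 rose and 7 fell, where 8.39% and 10.2% of all genes did. The rises were those of PPL (periplakin, a desmosome linker; 1.05), LSR (angulin 1 of tricellular junctions; 0.54), SPINT2 (a protease inhibitor; 0.54), JUP (plakoglobin; 0.38), MAGI3 (0.29), ILDR2 (0.28), DLG3 (0.19) and PALS1 (Crumbs complex; 0.18). The falls were those of LIN7A by 0.55, MYO9A by 0.49, MPDZ by 0.48, LLGL1 by 0.36 and TJAP1 by 0.28. All 5 falls also passed against mock. LSR, ILDR2 and DLG3 did not pass against mock, at 0.12, 0.25 and 0.02. With the scrambled control LSR fell by 0.42 and SPINT2 by 0.20 against mock, and LIN7A rose by 0.21. LLGL1 fell where its relative LLGL2 rose, and MPDZ, a relative of PATJ, fell where PATJ rose. Their differences from each other were not tested. Of 5 genes named as ZEB1-repressed in work on other lines, CRB3, PATJ, LLGL2, PKP3 and CDH1, all 5 rose against the scrambled control (7.6% of all genes) and 4 rose against mock (8.39% of all genes). Of these 5, CDH1 is the one that is not among the 46.

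The comparison with mock sets the mimic against mock transfected cells, whose labels give no dose or time. It shares the mimic arrays with the one above, so its values are set beside it and are not independent of it. Against mock 18 of the 46 genes rose and 3 fell, where 8.39% of all genes rose and 10.2% fell (18.6% in either direction). By probe set, 29 rose and 6 fell, against 5.07% and 6.98% of all (35 in either direction, against 12.1%). At least 1.5-fold higher were 7 genes (0.764% of all), namely EPCAM (2.28-fold), CGN (1.89), MARVELD2 (1.83), MARVELD3 (1.83), PKP2 (1.69), DSP (1.61) and DSC2 (1.53). The mimic arrays lay wholly above mock in 48 member probe sets (13.6% of all) and wholly below in 16 (14.6% of all).

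OCLN, TJP3, CRB3, PATJ, LLGL2, MUC1, AFDN and GJB2 also rose against mock, by 0.30, 0.27, 0.27, 0.24, 0.34, 0.48, 0.18 and 0.58. TJP1, PKP3, NECTIN2 and GJA1, which rose against the scrambled control, did not pass against mock, at 0.02, 0.18, -0.12 and 0.14. TJP1 fell by 0.21 with the scrambled control against mock, and rose by 0.23 with the mimic against the scrambled control. CXADR rose by 0.27 (adjusted p = 0.00898), where its change against the scrambled control had not passed. The claudins CLDN11 and CLDN12 rose by 0.44 and 0.25 against mock, and CLDN1 and CLDN3 fell by 0.21 and 0.24. With the mean of all its probe sets the rise of CLDN11 was 0.18 and that of DSC2 0.40. With that mean AFDN did not pass, at 0.11 (limma adjusted p = 0.133). The call of TJP3 ended when any 1 mock array (adjusted p = 0.0647 to 0.0699) or mimic replicate 1 (0.0710) or 3 (0.0740) was left out. It also ended after quantile normalization (limma adjusted p = 0.0650). The call of CRB3 ended without mimic replicate 3 (0.0609) or mock replicate 3 (0.0567), and that of CLDN1 without mimic replicate 3 (0.114), mock replicate 2 (0.0539) or mock replicate 3 (0.107). AFDN lost its call without mimic replicate 1 (0.0601), mimic replicate 3 (0.0773), mock replicate 2 (0.0567) or mock replicate 3 (0.0806).

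Within AFDN, probe sets passed in opposite directions against mock. One fell by 0.21 and read -0.03, 0.01 and 0.00 with the mimic, -0.09, -0.03 and -0.09 with the scrambled control and 0.18, 0.27 and 0.17 with mock. Another rose by 0.36 and read 0.00, 0.35 and 0.13 with the mimic, 0.11, 0.13 and 0.00 with the scrambled control and -0.39, -0.11 and -0.09 with mock. In both the mimic and scrambled arrays overlapped and mock stood apart, high in the first and low in the second. The fall lost its call without mimic replicate 1 (adjusted p = 0.0597), mimic replicate 3 (0.0594) or mock replicate 2 (0.0963). The rise lost its call without mimic replicate 2 (0.146), mimic replicate 3 (0.0927), mock replicate 1 (0.146), mock replicate 2 (0.0669) or any 1 scrambled array (0.0571 to 0.0674).

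PRKCI, the atypical protein kinase C iota of the Par complex, fell against mock by 0.27 (SE 0.05, adjusted p = 0.0026), and all 3 of its probe sets fell, by 0.51, 0.31 and 0.22. In the most changed, picked after its values were seen, the mimic arrays read -0.12, -0.12 and -0.18, the scrambled arrays 0.00, 0.00 and 0.19 and the mock arrays 0.34, 0.33 and 0.44. The 3 groups did not overlap, with scrambled between the others. The call of the probe set at 0.22 lower ended without mimic replicate 2 or 3 or mock replicate 1 or 3 (adjusted p = 0.0556 to 0.0696).

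The scrambled control was then set against mock. The mock labels give no dose or time, so the effect of the small RNA alone was not tested. CLDN11 and CLDN12 rose and CLDN1, CLDN3, TJP1 and NECTIN2 fell, 2 and 4 of 46 genes, where 2.72% of all genes rose and 5.25% fell (7.97% in either direction). By probe set, 2 rose and 9 fell, against 1.23% and 2.84% of all (11 in either direction, against 4.07%). The scrambled arrays lay wholly above mock in 23 member probe sets (12% of all) and wholly below in 19 (12.6% of all). The probe set calls numbered 3, 3 and 6 without mock replicate 1, 2 or 3 and 3, 6 and 4 without scrambled replicate 1, 2 or 3. Over all probe sets they numbered 847, 732 and 1244 and 987, 1090 and 940 in the same order. The gene calls numbered 3, 3 and 4 and 4, 3 and 4, and over all genes 763, 812 and 1018 and 989, 988 and 771. CGN and PKP3 came near to passing, at 0.29 (adjusted p = 0.0537) and -0.25 (0.0509).

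**Figure D4:**
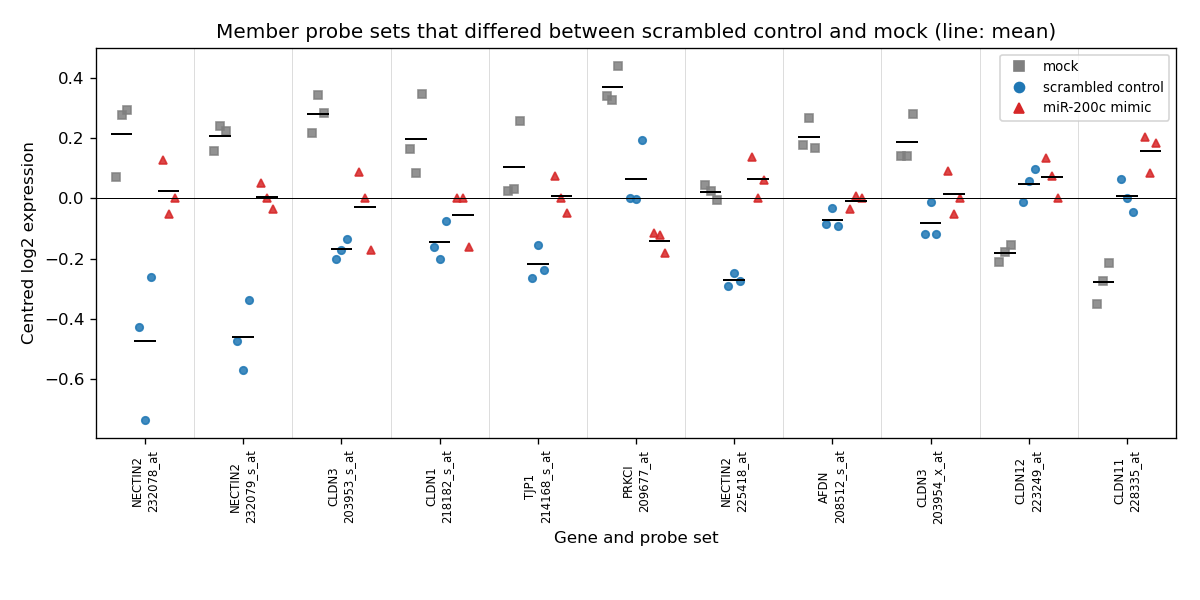
Centred log2 values of the 9 arrays, by group with each mean as a line, for the 11 member probe sets that passed between the scrambled control and mock. The scrambled arrays lie below mock in 9 of them, most in a NECTIN2 probe set (-0.74 to -0.26 against 0.07 to 0.29), and above mock in the probe sets of CLDN11 and CLDN12.

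NECTIN2 fell by 0.47 against mock with the scrambled control (SE 0.06, adjusted p = 0.00144), and its change with the mimic against mock was -0.12 (95% interval -0.25 to 0.00), which did not pass. It thus rose against the scrambled control and did not pass against mock. CLDN3 read -0.20, -0.17 and -0.14 with the scrambled control, 0.22, 0.34 and 0.28 with mock and 0.09, 0.00 and -0.17 with the mimic in its more changed probe set, chosen after its values were seen. Both transfected groups lay under mock and overlapped each other. CLDN3 fell by 0.36 with the scrambled control (SE 0.05, adjusted p = 0.004). PRKCI and AFDN each had 1 probe set that fell with the scrambled control, by 0.30 and 0.27. Both calls ended when mock replicate 1 (adjusted p = 0.0776 and 0.0513), mock replicate 2 (0.0783 and 0.0803) or scrambled replicate 1 (0.102 and 0.0638) was left out, that of PRKCI also without mock replicate 3 (0.0929) or scrambled replicate 2 (0.0953), and that of AFDN without scrambled replicate 3 (0.0654). The genes, at -0.15 and -0.04, did not pass.

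CLDN11 rose by 0.29 (adjusted p = 0.011) through 1 of its 3 probe sets, and its adjusted p was 0.136 with the mean of all 3. CLDN12 rose by 0.23 (adjusted p = 0.0214), a call that ended without mock replicate 1 (0.0759), mock replicate 2 (0.0657), scrambled replicate 2 (0.0605) or scrambled replicate 3 (0.0797). CLDN1 fell by 0.24 (adjusted p = 0.0384) and lost its call without any 1 of the mock or scrambled arrays (0.0507 to 0.116). TJP1 fell by 0.21 (adjusted p = 0.0446), and its call ended without any 1 of the mock or scrambled arrays, or without mimic replicate 2 or 3 (0.0539 to 0.115).

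A measure of RNA quality moved with the mock group. The centred difference between the 3′ and 5′ probe sets of ACTB was -0.18 ± 0.03 on the mock arrays, 0.10 ± 0.04 on the scrambled arrays and 0.02 ± 0.08 on the mimic arrays (SD, n = 3 each). For GAPDH it was 0.03 ± 0.04, 0.01 ± 0.02 and -0.02 ± 0.03. Its part in the differences from mock was not tested.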

How the data were processed

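The labels' protocols describe total RNA of 9 Hec50 samples, hybridised to Affymetrix arrays with 1 colour. The deposited values stand in 1 table of 54675 probe sets and were taken as log2 signals. The authors' summarising and normalising steps are not given in the sources used here, nor is the base of the logarithm, which was taken as 2, the custom for such arrays. From the values, each probe set was shifted so that its 9-array median is 0. More than 1 value was exactly 0 in 48.9% of probe sets and 44 of the 115 member probe sets, and ties of this kind can make arrays look closer than they were.

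Symbols are those of the platform annotation of 2016. All 115 member probe sets kept their symbol when matched by Entrez identifier to a human gene table (GRCh38.p14). The 62 control probe sets were left out, as was 1 probe set that lists a member among several symbols. The level class was recovered from the step between stored numbers, and 98.6% of 6000 simulated probe sets were placed rightly. The simulation used normal noise and left out the added ties at exactly 0 seen in the stored values. That share may therefore not hold for the data, where the true classes are not known. Group means of all 54613 probe sets were fitted in R 4.3.3 by lmFit and eBayes of limma 3.58.1, two-sided, with Benjamini-Hochberg adjustment over all. The same fit was run on 19775 genes, each the mean of its probe sets in its highest level class. The probe set fit of mimic against scrambled was tested on 9 simulated arrays, with 5 runs of 200 changed among 54613 probe sets. It recovered 7.6%, 66.8%, 96.0% and 99.6% of changes of 0.25, 0.5, 1 and 2, and 28 of 703 calls were false. The noise was simulated as normal and independent between arrays, whereas 4730 probe sets passed in the data. False calls under correlated arrays were not tested.

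The 46 genes, the other gene lists and the tests were chosen with earlier results of these data known. Every member is named. Array values are given for the 14 with the largest probe set changes that passed against the scrambled control and for any member whose probe sets passed in opposite directions. Those of CLDN3, CLDN16, PARD3 and PRKCI were added after their values were seen. Alternatives were the level minimum, quantile normalization, a replicate block, a robust spread, only the arrays compared, the mean of all probe sets and each array left out. Chosen after seeing the data were leaving out mock replicate 3 with mimic replicate 1, and using only probe sets with 1 value at exactly 0.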

Additional observations from a re-analysis of the deposited data

How the results depend on the processing

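No change of a member turned its sign under any alternative while called. Some alternatives took in only probe sets that met a rule on level or on values at 0, so some members did not enter them. Members that passed under every alternative they entered are counted here, of 14 run for genes and 17 for probe sets. For genes these were 13 of 19 called (mimic against scrambled), 17 of 21 (mimic against mock) and 2 of 6 (scrambled against mock). For probe sets they were 18 of 32, 21 of 35 and 3 of 11. With only probe sets at a level of 8 or more, 18 and 23 of 44 member probe sets passed for the mimic against scrambled and mock. Of all 15755 probe sets there, 4477 and 5607 passed. For scrambled against mock 3523 of the 15755 passed (2223 of 54613 in the full fit). Without both mock replicate 3 and mimic replicate 1, 19 member probe sets and 3574 of all probe sets passed for mimic against scrambled. For scrambled against mock 6 member probe sets, 1318 of all probe sets and 1031 genes passed. For scrambled against mock, the 6 arrays compared gave 6 member probe sets and 1409 of all, and quantile normalization 17 member probe sets and 3029 of all. With 1 array left out, the probe sets that passed ranged from 3448 to 4494 (mimic against scrambled) and from 4349 to 6599 (mimic against mock). For scrambled against mock they ranged from 732 to 2059 (763 to 1662 genes). Member probe sets ranged from 20 to 31 (mimic against scrambled) and from 3 to 11 (scrambled against mock, 3 to 6 genes). The replicate numbers did not pair the arrays: deviations of same-numbered arrays correlated from -0.24 to 0.15, with 1 of 9 pairs over 0.1. Arrays of different numbers and groups correlated from -0.22 to 0.36, highest between mock replicate 3 and mimic replicate 1. With the replicate block, 26, 34 and 5 member probe sets and 18, 20 and 4 member genes passed in the 3 comparisons. Of all probe sets 3944, 5602 and 1366 passed there, and of all genes 2581, 3330 and 1221. Signal over background is not known, so a low level class does not show that a gene was undetected.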
